A study of Mus musculus with 24 samples.

Results

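The 50 genes described here are ribosome biogenesis genes, taken by name from both count tables of a study of mouse embryonic stem cells (mESCs). A gene was included if its symbol was Nop, Nol, Utp or Rrp followed by a digit, Polr1a to Polr1e, or Gar1, Fbl, Ncl, Npm1, Dkc1, Bop1, Pes1, Wdr12, Rrs1, Nhp2 or Nip7. This gave 50 of 35022 genes in one table and 51 of 48709 in the other, where the additional match, *Utp14b-ps1*, was left out because the first table does not list it. All 50 are annotated as protein-coding. *Nol3*, *Nol4* and *Nol4l* carry a matching name but no role in ribosome assembly that is known with certainty. They are counted in every total, median and sum, and their own values are given apart.

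The cells were E14 mESCs (129m wt), grown for 12 h on soft or stiff StemBond hydrogels coated with fibronectin, in 2i+LIF. StemBond hydrogels are polyacrylamide gels that tether matrix protein firmly, and 2i+LIF is a serum-free medium that holds mESCs in naïve pluripotency with PD03 (1 µM, a MEK inhibitor), CHIRON (3 µM, a GSK3 inhibitor) and the cytokine LIF. In one experiment PD03 was taken away, leaving CHIRON and LIF, and in the other CHIRON was taken away, leaving PD03 and LIF. RNA was collected at 0 h (still in 2i+LIF), 2 h and 12 h, with 2 libraries in each of the 6 groups of each experiment. Both controls therefore carry both inhibitors, and no group was kept in 2i+LIF for the full 12 h after the change.

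The 23 libraries used held between 16222196 and 31111260 counted reads. The library of CHIRON removal, stiff, 2 h, replicate 1 held 171333, of which 168 fell on the 50 genes, and it was left out, so that this group is 1 library assumed to vary like the others. The study's figure legends describe these experiments as performed in triplicate, whereas 2 libraries per group were deposited. It is not stated that these libraries came from separate cultures, so p-values measure the spread between libraries, which may be technical. All 10 embryonic stem cell markers were detected, and their summed level was between 6937 and 8266 CPM, which are counts scaled to a fixed library size, in the PD03 removal libraries and between 6017 and 6752 CPM in the CHIRON removal libraries. The summed markers of primitive endoderm and fibroblasts did not exceed 6.60 CPM in any library, and those of trophoblast and neural cells did not exceed 38.9 and 82.2 CPM. In bulk RNA, fewer cells that express a gene and less of its RNA per cell cannot be told apart.

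Ribosomes are assembled in the nucleolus. RNA polymerase I transcribes the precursor of the large ribosomal RNAs, small nucleolar ribonucleoproteins of the box C/D and box H/ACA classes guide its methylation and pseudouridylation, and a succession of assembly factors folds, cleaves and trims it while ribosomal proteins are added. The small subunit processome and the factors of the large subunit act on different parts of that precursor, and growing stem cells make ribosomes at a high rate. The transcription factor Myc is a known activator of many of these genes.

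RefSeq (GRCm38.p6) promoters, from 250 bases before to 50 bases after an annotated start, were at hand for 39 of the 50 genes. Of these, 4 are shown: *Ncl*, *Nop2* and *Nip7* for their responses below, and *Pes1* for the letters in its window and not for its response. *Ncl* had the largest difference in response between the experiments, *Nop2* and *Nip7* fell on both substrates after CHIRON removal, and *Pes1* holds an E-box at its start. They lie at chr1:86359406-86359705 on the minus strand for *Ncl*, chr6:125131633-125131932 for *Nop2*, chr8:107056627-107056926 for *Nip7* and chr11:3963725-3964024 for *Pes1*, the last 3 on the plus strand. Capitals mark CACGTG (the E-box that Myc and related factors can bind), its variant CACGCG and CCGGAAG (the core of ETS factor sites), on either strand.
Ncl: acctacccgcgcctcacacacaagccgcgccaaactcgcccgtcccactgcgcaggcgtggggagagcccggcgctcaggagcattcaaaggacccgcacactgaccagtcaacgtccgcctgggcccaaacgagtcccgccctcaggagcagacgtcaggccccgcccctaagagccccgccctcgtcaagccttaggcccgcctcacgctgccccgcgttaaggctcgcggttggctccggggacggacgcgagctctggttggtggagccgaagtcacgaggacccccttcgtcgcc
Nop2: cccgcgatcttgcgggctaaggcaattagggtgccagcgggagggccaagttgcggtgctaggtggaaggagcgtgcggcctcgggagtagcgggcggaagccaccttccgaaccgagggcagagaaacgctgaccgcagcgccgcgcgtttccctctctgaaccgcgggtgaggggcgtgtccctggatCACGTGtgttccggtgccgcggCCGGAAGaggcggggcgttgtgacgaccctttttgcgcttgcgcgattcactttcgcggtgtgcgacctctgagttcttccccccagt
Nip7: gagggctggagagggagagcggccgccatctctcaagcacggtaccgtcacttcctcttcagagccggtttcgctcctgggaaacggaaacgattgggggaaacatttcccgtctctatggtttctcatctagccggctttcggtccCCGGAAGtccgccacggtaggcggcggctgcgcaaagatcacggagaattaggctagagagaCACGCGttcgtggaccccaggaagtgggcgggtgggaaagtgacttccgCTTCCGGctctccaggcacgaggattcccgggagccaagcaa
Pes1: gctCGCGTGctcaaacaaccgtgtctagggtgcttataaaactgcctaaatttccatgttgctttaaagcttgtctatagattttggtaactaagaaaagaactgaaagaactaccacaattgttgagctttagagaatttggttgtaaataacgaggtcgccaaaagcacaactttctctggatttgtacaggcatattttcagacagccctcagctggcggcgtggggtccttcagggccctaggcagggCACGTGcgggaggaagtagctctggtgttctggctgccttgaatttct
The window of *Ncl* holds none of these letters. That of *Nop2* has CACGTG 60 bases and CCGGAAG 38 bases before the start, and that of *Nip7* has CCGGAAG 103 bases and CACGCG 41 bases before it. The window of *Ncl* follows a RefSeq start and lies wholly before the GENCODE span of the gene, which ends at 86359400. Letters at the GENCODE start of *Ncl* were therefore not searched. Of 46 windows of these genes, 43 had their last 30 bases in a GENCODE transcript of the gene.

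Across the 39 genes, 9 motifs were searched on both strands, all chosen with results for these genes known, and the share of all 17492 protein-coding genes with a promoter window is given beside each. CACGTG occurred in 7 of 39 (17.9%, against 8.91% of all), in *Nol11*, *Nop2*, *Pes1*, *Rrp7a*, *Utp14b*, *Utp18* and *Utp20*. CACGCG occurred in 14 (35.9%, against 13.7%), CCGGAAG in 13 (33.3%, against 12.9%) and the GC box GGGCGG in 28 (71.8%, against 49.2%). CTTTGAT, a TCF/LEF site, occurred in 2 (5.13%, against 3.74%) and TATAAA in 5 (12.8%, against 14.8%). The NRF1, ZBTB33 and YY1 motifs, of 10, 10 and 11 letters, occurred in 0, 1 and 0 genes, against 1.47%, 0.755% and 1.06% of all. The windows of these genes also held more CG dinucleotides, with a median of 21 against 13, and the first 4 motifs contain CG. These counts describe letters in the windows and carry no test.

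**Figure D1:**
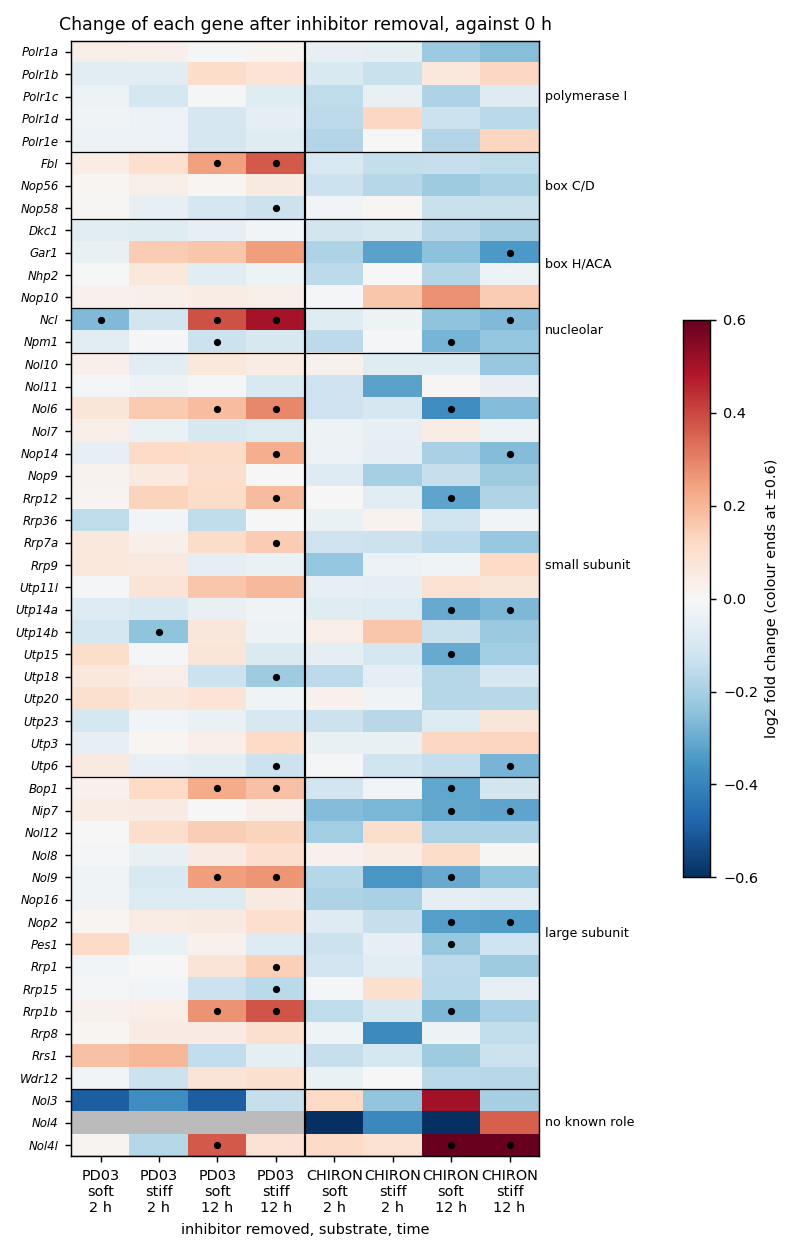
Log2 fold change against 0 h of each of the 50 genes (rows, grouped by role) on soft and stiff substrates at 2 h and 12 h after removal of PD03 or CHIRON (columns). Black dots mark an adjusted p under 0.05, grey marks a gene below the count filter, and colours end at ±0.6. At 2 h there are 2 dots, both after PD03 removal, and at 12 h most dots are red on the PD03 side and blue on the CHIRON side.

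Taken per length of exon at 0 h, *Npm1*, a nucleolar chaperone, was the most abundant of these RNAs in both experiments, at 585 CPM per kb in the PD03 removal libraries (range 571 to 604, n = 4) and 959 CPM per kb in the CHIRON removal libraries (range 928 to 996, n = 4). *Nhp2*, a box H/ACA protein, followed in the first at 202 CPM per kb, and *Ncl* in the second at 339 CPM per kb. In the first, *Ncl* was at 54.7 CPM per kb, although the 0 h cells of both experiments were in 2i+LIF. *Dkc1* and *Nop56* had overlapping ranges in each experiment, near 104 and 98.8 CPM per kb in the first and 99.0 and 100.4 CPM per kb in the second. At the low end, *Nol3* reached 0.596 and 1.53 CPM per kb, and *Nol4* was below the count filter in the PD03 removal table. The 2 tables were counted separately, so levels are not compared between them by any test.

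The summed level of the group was described without a test. After PD03 removal it was between 9213 and 9430 CPM at 0 h, between 9124 and 9357 CPM at 2 h and between 9359 and 9652 CPM at 12 h. Over both substrates together, the 0 h range overlapped both others, and those of 2 h and 12 h did not overlap each other. Within each substrate the 12 h libraries lay above those of 0 h. On soft the sum was 9213 and 9261 CPM at 0 h and 9479 and 9359 CPM at 12 h. On stiff it was 9430 and 9331 CPM, then 9652 and 9634 CPM. After CHIRON removal it was between 11296 and 11819 CPM at 0 h, between 10381 and 11189 CPM at 2 h and between 9732 and 10447 CPM at 12 h, and the 0 h and 12 h libraries did not overlap. *Ncl* and *Npm1* made up at most 23.9% of the sum in the PD03 removal libraries and at most 53.4% in the CHIRON removal libraries. Without them the sum after CHIRON removal was still lower at 12 h (4803 to 5150 CPM) than at 0 h (5349 to 5527 CPM).

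**Figure D2:**
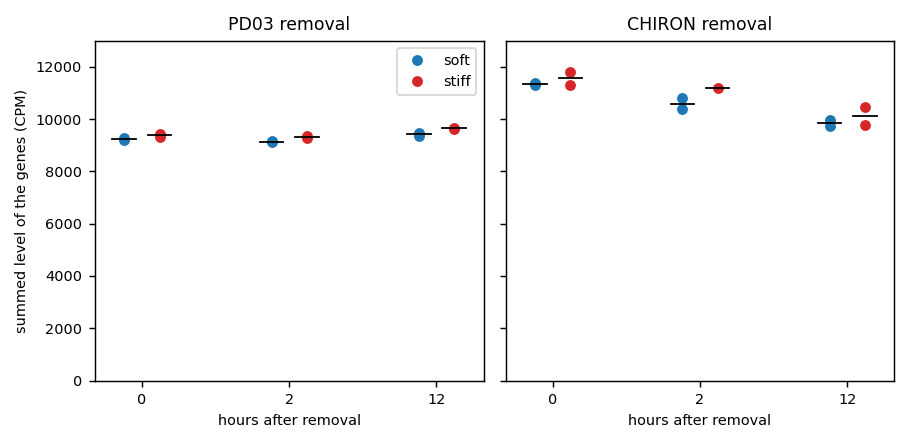
Summed level of the 50 genes (CPM, axis from 0) in each library against hours after removal, with soft in blue, stiff in red and the group mean as a bar. All 4 CHIRON removal libraries at 12 h lie below all 4 at 0 h. The PD03 removal libraries at 0 h and 12 h overlap in range over both substrates together, but on each substrate those of 12 h lie higher.

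PD03 removal was compared with 0 h on each substrate to ask which of these genes respond when MEK is released. Changes are log2 differences from 0 h, with soft before stiff where a pair is given, and calls are against 0 h unless 2 h is named. Where a call was lost on leaving out 1 library of the substrate, that library is named with the change without it. At 12 h, 7 of 49 tested genes rose and 1 fell on soft, where 29.4% of all tested genes were called, and 10 rose and 4 fell on stiff, where 38.4% were called. The shares of these genes called were 16.3% and 28.6%, below the background on both substrates. In single directions the background was 14.1% higher and 15.3% lower on soft and 18.5% higher and 19.9% lower on stiff. The count on stiff went from 14 to 7 without stiff, 0 h, replicate 1 and to 8 without stiff, 12 h, replicate 1. *Bop1*, *Fbl*, *Ncl*, *Nol6*, *Nol9* and *Rrp1b* rose on both. The median change over the 49 genes was 0.05 on soft and 0.03 on stiff on the log2 scale.

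*Ncl* encodes nucleolin, an abundant nucleolar protein that binds ribosomal RNA precursors (GRCm38, chromosome 1, 86344719 to 86359400). Its level after PD03 removal was 618 and 565 CPM at 0 h, 537 and 448 at 2 h, then 812 and 729 at 12 h on soft. On stiff, *Ncl* was at 517 and 530.4, then 462 and 510.2, then 750.5 and 728 CPM. All 12 h libraries were above all others, and the 2 h libraries lay below those of 0 h on both substrates. The log2 change at 12 h was 0.38 ± 0.06 (SE, adjusted p = 2.17e-05) on soft and 0.50 ± 0.06 (SE, adjusted p = 2.43e-07) on stiff. At 2 h it was -0.26 ± 0.06 (SE, adjusted p = 0.017) on soft, the only gene of the 49 called there, against 1.96% of all tested genes. That call was lost without 0 h replicate 1 (-0.20) or 2 h replicate 2 (-0.14), and the value on stiff was -0.11 ± 0.06 (SE, adjusted p = 0.474). Several small nucleolar RNA genes lie within *Ncl*, *Nop56*, *Nop58* and *Dkc1*, and some overlap annotated exons of the first 3.

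*Fbl* encodes fibrillarin, the methyltransferase of box C/D particles (chromosome 7, 28169710 to 28179269). It stood at 60.9 and 62.7 CPM at 0 h, 65.5 and 61.9 at 2 h, then 69.8 and 76.6 at 12 h on soft. On stiff, *Fbl* was at 55.3 and 63, then 60.1 and 67.5, then 76.1 and 77.2 CPM. Its 12 h libraries were above those of 0 h on both substrates, with log2 changes of 0.25 ± 0.07 (SE, adjusted p = 0.00952) and 0.37 ± 0.07 (SE, adjusted p = 0.000153). The call on soft was lost without 0 h replicate 1 (0.23) or 12 h replicate 2 (0.18). *Nop56* and *Nop58*, further core proteins of the same particle, were not called higher. *Nop56* was at 403 and 401 CPM at 0 h, 405 and 407 at 2 h, then 408 and 403 at 12 h on soft. On stiff, *Nop56* was at 418 and 398, then 419.8 and 416, then 420.5 and 425 CPM. For *Nop56* the log2 change at 12 h was 0.01 (adjusted p = 0.856) and 0.05 (adjusted p = 0.343). *Nop58* was at 608 and 638 CPM at 0 h, 627 and 625 at 2 h, then 587 and 572 at 12 h on soft. On stiff, *Nop58* was at 674 and 657, then 637 and 648, then 596 and 620.2 CPM. It fell on stiff, by a log2 change of -0.13 ± 0.04 (SE, adjusted p = 0.0138), and gave -0.10 (adjusted p = 0.0579) on soft. The fall of *Nop58* was lost without 0 h replicate 1 (-0.11) or 12 h replicate 1 (-0.10).

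The box H/ACA proteins, which carry out pseudouridylation, held no gene called against 0 h after PD03 removal. *Dkc1*, the pseudouridine synthase, was at 424 and 432 CPM at 0 h, 417 and 403 at 2 h, then 430.5 and 395 at 12 h on soft. On stiff, *Dkc1* was at 439 and 417, then 407 and 407, then 412 and 434 CPM. Its 12 h libraries overlapped those of 0 h on both substrates. *Gar1* (chromosome 3, 129824912 to 129831396) was at 22 and 20.9 CPM at 0 h, 22.6 and 18.9 at 2 h, then 24.1 and 24 at 12 h on soft. On stiff, *Gar1* was at 21.2 and 22, then 23.1 and 25, then 28 and 23.3 CPM. Its 12 h changes were 0.16 (adjusted p = 0.244) on soft and 0.25 (adjusted p = 0.0542) on stiff. *Nop10* was at 81.5 and 86 CPM at 0 h, 84.8 and 85.5 at 2 h, then 82.4 and 90.4 at 12 h on soft. On stiff, *Nop10* was at 90.0 and 89.4, then 95.3 and 88, then 94.9 and 88.9 CPM. The libraries of *Nop10* overlapped between times. *Nhp2* gave -0.07 and -0.03.

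None of the 5 polymerase I subunit genes was called against 0 h after PD03 removal, and *Polr1b* was called between 2 h and 12 h. *Polr1a*, the largest subunit, was at 354 and 367 CPM at 0 h, 362 and 376 at 2 h, then 352 and 365 at 12 h on soft. On stiff, *Polr1a* was at 352 and 367, then 354 and 380.5, then 366 and 364 CPM. *Polr1b*, the second largest, was at 185 and 191 CPM at 0 h, 179 and 179 at 2 h, then 198 and 207 at 12 h on soft. On stiff, *Polr1b* was at 196 and 188, then 178 and 188, then 199.5 and 207 CPM. The 12 h changes of *Polr1b* were 0.11 (adjusted p = 0.0854) and 0.08 (adjusted p = 0.181), and its rises from 2 h to 12 h were 0.18 (adjusted p = 0.00592) and 0.15 (adjusted p = 0.0153). The call on soft was lost without 12 h replicate 2 (0.14) and that on stiff without 2 h replicate 1 (0.11) or 12 h replicate 2 (0.13). The 12 h changes of *Polr1a* were -0.01 and 0.02. *Polr1c*, *Polr1d* and *Polr1e* had 12 h changes between -0.10 and -0.01 on soft.

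Among large subunit factors, *Rrp1b* (chromosome 17, 32036100 to 32062865) rose most. It was at 226 and 210.0 CPM at 0 h, 226 and 217 at 2 h, then 258 and 268 at 12 h on soft. On stiff, *Rrp1b* was at 226 and 209, then 226 and 221, then 279 and 285 CPM. For *Rrp1b* the log2 change at 12 h was 0.27 ± 0.05 (SE, adjusted p = 0.000115) and 0.38 ± 0.05 (SE, adjusted p = 6.56e-07). *Bop1*, *Pes1* and *Wdr12* encode the PeBoW complex, which acts in large subunit assembly, and 1 of the 3 was called. *Bop1* was at 138 and 138 CPM at 0 h, 133 and 148 at 2 h, then 157 and 165 at 12 h on soft. On stiff, *Bop1* was at 137 and 147, then 153 and 156, then 159 and 163 CPM. For *Bop1* the log2 change at 12 h was 0.22 ± 0.05 (SE, adjusted p = 0.0023) and 0.18 ± 0.05 (SE, adjusted p = 0.0106), and the call on stiff was lost without 0 h replicate 1 (0.13) or 12 h replicate 2 (0.16). *Pes1* was at 211 and 216 CPM at 0 h, 222 and 239 at 2 h, then 228 and 207 at 12 h on soft. On stiff, *Pes1* was at 235 and 225, then 224 and 223, then 219 and 217 CPM. *Wdr12* was at 93.7 and 90.4 CPM at 0 h, 91.9 and 90.3 at 2 h, then 95.8 and 98.1 at 12 h on soft. On stiff, *Wdr12* was at 95.9 and 95.8, then 83.7 and 91.6, then 101 and 104 CPM. Neither was called against 0 h, with 12 h changes of 0.03 and -0.08 for *Pes1* and 0.08 and 0.10 for *Wdr12*.

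*Nol9*, a polynucleotide kinase of ribosomal RNA processing, rose by 0.25 (adjusted p = 0.000558) and 0.27 (adjusted p = 0.000179). *Rrp1* rose on stiff, by 0.14 (adjusted p = 0.0232), a call lost without any 1 of the 4 libraries compared (0.12 to 0.16). *Rrp15* was at 111 and 119 CPM at 0 h, 109 and 119 at 2 h, then 106 and 104 at 12 h on soft. On stiff, *Rrp15* was at 124 and 122, then 119 and 124, then 108 and 113 CPM. *Rrp15* fell on stiff, by a log2 change of -0.16 (adjusted p = 0.023), lost without 0 h replicate 1 (-0.15), 0 h replicate 2 (-0.17) or 12 h replicate 1 (-0.13). *Nop2*, a ribosomal RNA methyltransferase, was at 322 and 325 CPM at 0 h, 326 and 326 at 2 h, then 338 and 333 at 12 h on soft. On stiff, *Nop2* was at 325 and 327, then 337 and 336, then 339 and 361 CPM. *Nop2* was not called, with 0.10 (adjusted p = 0.0663) on stiff. *Nip7* was at 135 and 138 CPM at 0 h, 133 and 148 at 2 h, then 129.5 and 143 at 12 h on soft. On stiff, *Nip7* was at 139.6 and 149, then 153 and 146, then 149 and 146 CPM. The libraries of *Nip7* overlapped between times. *Rrs1*, which helps to place the 5S particle, was at 75.1 and 78.9 CPM at 0 h, 84.2 and 89.6 at 2 h, then 67 and 72.1 at 12 h on soft. On stiff, *Rrs1* was at 79.1 and 79.6, then 92.5 and 89.6, then 77.8 and 75.2 CPM. The 2 h libraries of *Rrs1* were above all others. They did not pass the test against 0 h, at 0.17 (adjusted p = 0.169) on soft and 0.20 (adjusted p = 0.0661) on stiff, but *Rrs1* fell from 2 h to 12 h, with -0.32 (adjusted p = 0.000183) and -0.25 (adjusted p = 0.00162). *Nol8*, *Nol12*, *Nop16* and *Rrp8* were not called.

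Of the small subunit factors, *Nol6* rose on both substrates. It was at 179 and 178 CPM at 0 h, 189 and 186 at 2 h, then 194 and 211 at 12 h on soft. On stiff, *Nol6* was at 166 and 180.3, then 191 and 196, then 217 and 208 CPM. For *Nol6* the log2 change at 12 h was 0.18 ± 0.05 (SE, adjusted p = 0.00715) and 0.29 ± 0.05 (SE, adjusted p = 4.64e-05), and the call on soft was lost without 12 h replicate 2 (0.12). On stiff, *Nop14*, *Rrp7a* and *Rrp12* also rose, by 0.22 (adjusted p = 0.0135), 0.15 (adjusted p = 0.0273) and 0.19 (adjusted p = 0.0279). The call for *Nop14* was lost without 0 h replicate 2 (0.15) or 12 h replicate 1 (0.20). That for *Rrp7a* was lost without 0 h replicate 1 (0.15), 0 h replicate 2 (0.15) or 12 h replicate 1 (0.09), and that for *Rrp12* without 0 h replicate 1 (0.10), 12 h replicate 1 (0.19) or 12 h replicate 2 (0.19). *Rrp12* was at 101 and 107 CPM at 0 h, 101 and 109.5 at 2 h, then 103 and 121 at 12 h on soft. On stiff, *Rrp12* was at 95.8 and 110.3, then 112 and 115, then 118 and 118 CPM. *Utp18*, a processome subunit, was at 140.5 and 141 CPM at 0 h, 146 and 149 at 2 h, then 127 and 131 at 12 h on soft. On stiff, *Utp18* was at 153 and 152, then 163 and 150.5, then 133 and 129.8 CPM. *Utp18* fell on stiff, with a change of -0.21 ± 0.05 (SE, adjusted p = 0.00131). *Utp6* also fell on stiff, with -0.13 (adjusted p = 0.0332), a call lost without 0 h replicate 1 (-0.11), 0 h replicate 2 (-0.15) or 12 h replicate 1 (-0.07). *Utp20* was at 328 and 330.2 CPM at 0 h, 347 and 357 at 2 h, then 337 and 361 at 12 h on soft. On stiff, *Utp20* was at 338 and 368, then 334 and 405, then 349.7 and 344 CPM. *Utp20* was not called, and neither were *Nol7*, *Nol10*, *Nol11*, *Nop9*, *Rrp9*, *Rrp36*, *Utp3*, *Utp11l*, *Utp14a*, *Utp15* and *Utp23* at either time. *Utp14b* was the 1 gene called on stiff at 2 h, where 2.73% of all tested genes were called, with -0.24 ± 0.05 (SE, adjusted p = 0.0084). The call was lost without 0 h replicate 2 (-0.21) or 2 h replicate 1 (-0.17). *Utp14b* shares 244 bases of exon with *Acsl3* on the same strand.

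*Npm1* was at 1551 and 1555 CPM at 0 h, 1489 and 1487 at 2 h, then 1452 and 1391 at 12 h on soft. On stiff, *Npm1* was at 1609 and 1521, then 1587 and 1513, then 1482 and 1448 CPM. It fell on soft, with -0.13 ± 0.04 (SE, adjusted p = 0.0121), and gave -0.10 (adjusted p = 0.0504) on stiff. The call was lost without 0 h replicate 2 (-0.12) or 12 h replicate 2 (-0.10). *Nol4l* rose on soft, by 0.37 (adjusted p = 0.00296). *Nol3* was at 2.47 and 1.65 CPM at 0 h, 1.35 and 1.59 at 2 h, then 1.38 and 1.56 at 12 h on soft. On stiff, *Nol3* was at 1.69 and 1.77, then 1.3 and 1.37, then 1.73 and 1.4 CPM. *Nol3* was too low to separate the times, and 48.2% of its exon bases are shared with a gene on the other strand. The strand setting of the counting is not given in the sources used here. Genes on the other strand also share exon bases of *Nop9* (29.9%), *Nol7* (16.5%), *Rrp7a* (12.5%), *Utp23* (11.5%) and *Utp14a* (11.5%). The counts and calls of these genes carry the same limit in both experiments.

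CHIRON removal was compared with 0 h in the same way. At 12 h, 1 of 50 genes rose and 11 fell on soft, where 17.8% of all tested genes were called, and 1 rose and 7 fell on stiff, where 16.8% were called. With both directions merged, the shares of these genes called were 24.0% and 16.0%. By direction, 11 of 50 fell on soft, where 8.63% of all tested genes fell, and 7 of 50 on stiff, where 8.33% fell. On each substrate 1 of 50 rose, against 9.18% of all tested genes on soft and 8.46% on stiff. *Nip7*, *Nop2* and *Utp14a* fell on both substrates. The median change was -0.17 on soft and -0.16 on stiff, and 41 and 40 of 50 genes (82.0% and 80.0%) had a change below 0, against 51.7% and 51.1% of all tested genes. The count on soft went from 12 to 2 without soft, 0 h, replicate 1, to 3 without soft, 0 h, replicate 2, and to 6 without soft, 12 h, replicate 2, and that on stiff from 8 to 4 and 1 without stiff, 12 h, replicate 1 and replicate 2. With the library of low depth added, 1 gene was called on each substrate.

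*Nop2* (chromosome 6, 125131909 to 125144753) was at 191 and 185 CPM at 0 h, 186 and 171 at 2 h, then 152 and 147 at 12 h on soft. On stiff, *Nop2* was at 207 and 193, then 182, then 163 and 154 CPM. Its 12 h libraries were the lowest on both substrates, with changes of -0.33 ± 0.08 (SE, adjusted p = 0.00529) and -0.33 ± 0.08 (SE, adjusted p = 0.00489). The call was lost on soft without 0 h replicate 1 (-0.28) and on stiff without 12 h replicate 2 (-0.29). *Nip7*, which binds the large subunit precursor (chromosome 8, 107056877 to 107060931), was at 74.2 and 72.4 CPM at 0 h, 59.1 and 63.2 at 2 h, then 59.9 and 58.5 at 12 h on soft. On stiff, *Nip7* was at 75.6 and 79.5, then 64.1, then 63.2 and 61.3 CPM. Its 2 h libraries were already below those of 0 h, without passing the test, and its 12 h changes were -0.31 ± 0.08 (SE, adjusted p = 0.0116) and -0.32 ± 0.08 (SE, adjusted p = 0.00961). For *Nip7* the call was lost on soft without 0 h replicate 1 (-0.26), 0 h replicate 2 (-0.32) or 12 h replicate 2 (-0.29) and on stiff without 0 h replicate 2 (-0.27) or 12 h replicate 2 (-0.30). *Utp14a*, of the small subunit processome, fell by a log2 change of -0.30 (adjusted p = 0.0238) and -0.27 (adjusted p = 0.0436). For *Utp14a* it was lost on soft without 0 h replicate 1 (-0.24), 0 h replicate 2 (-0.33) or 12 h replicate 1 (-0.24) and on stiff without 0 h replicate 1 (-0.17), 12 h replicate 1 (-0.24) or 12 h replicate 2 (-0.30).

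Another 4 large subunit factors, *Bop1*, *Pes1*, *Rrp1b* and *Nol9*, passed the test on soft and not on stiff, and no difference between substrates was called. *Bop1* was at 94.5 and 94.3 CPM at 0 h, 88.7 and 85.7 at 2 h, then 77.5 and 74.8 at 12 h on soft. On stiff, *Bop1* was at 93.4 and 91.1, then 91.2, then 86.4 and 84.7 CPM. For *Bop1* the log2 change at 12 h was -0.31 ± 0.07 (SE, adjusted p = 0.00663) on soft and -0.11 (adjusted p = 0.356) on stiff. *Pes1* was at 184 and 179 CPM at 0 h, 169.6 and 163 at 2 h, then 156 and 154 at 12 h on soft. On stiff, *Pes1* was at 174 and 182, then 172, then 163 and 164 CPM. For *Pes1* the log2 change at 12 h was -0.23 (adjusted p = 0.0333) on soft. Its partner *Wdr12* was at 52.7 and 52.7 CPM at 0 h, 51.6 and 51.1 at 2 h, then 44.9 and 49.7 at 12 h on soft. On stiff, *Wdr12* was at 58.2 and 49.7, then 53.8, then 47.7 and 48.3 CPM. *Wdr12* was not called. *Rrp1b* was at 137 and 140.3 CPM at 0 h, 128 and 122 at 2 h, then 108 and 123 at 12 h on soft. On stiff, *Rrp1b* was at 144 and 139, then 133, then 126 and 122 CPM. For *Rrp1b* the log2 change at 12 h was -0.27 (adjusted p = 0.0231) on soft and -0.19 (adjusted p = 0.101) on stiff. *Nol9* gave -0.30 (adjusted p = 0.0328) and -0.24 (adjusted p = 0.0982). *Rrs1* was at 136 and 129 CPM at 0 h, 122 and 119 at 2 h, then 113 and 116 at 12 h on soft. On stiff, *Rrs1* was at 128 and 135, then 122, then 119 and 122 CPM. For *Rrs1* the log2 change at 12 h was -0.21 (adjusted p = 0.0515) on soft. *Rrp15* was at 82.2 and 84.8 CPM at 0 h, 86.9 and 79.5 at 2 h, then 75.7 and 73.4 at 12 h on soft. On stiff, *Rrp15* was at 75.9 and 82.4, then 84.7, then 78.2 and 74.6 CPM. The 0 h and 12 h libraries of *Rrp15* overlapped on stiff. Of the 4 falls on soft, that of *Bop1* was lost without 0 h replicate 1 (-0.28), 0 h replicate 2 (-0.31) or 12 h replicate 2 (-0.29), and that of *Pes1* without any 1 of the 4 libraries compared (-0.25 to -0.17). That of *Rrp1b* was lost without 0 h replicate 1 (-0.25), 0 h replicate 2 (-0.25) or 12 h replicate 1 (-0.18), and that of *Nol9* without 0 h replicate 1 (-0.30), 0 h replicate 2 (-0.27) or 12 h replicate 1 (-0.20).

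In the small subunit group, *Nol6* was at 274 and 306 CPM at 0 h, 272 and 259 at 2 h, then 239 and 208 at 12 h on soft. On stiff, *Nol6* was at 283 and 309, then 276, then 262 and 232 CPM. For *Nol6* the log2 change at 12 h was -0.37 ± 0.09 (SE, adjusted p = 0.00772) on soft and -0.26 (adjusted p = 0.0578) on stiff. *Rrp12* was at 98.9 and 95 CPM at 0 h, 100.3 and 93.9 at 2 h, then 78.2 and 77.4 at 12 h on soft. On stiff, *Rrp12* was at 99 and 98, then 94.4, then 91.3 and 82.6 CPM. For *Rrp12* the log2 change at 12 h was -0.32 ± 0.08 (SE, adjusted p = 0.00856) on soft. *Utp15* fell on soft, with -0.30 (adjusted p = 0.0347), and *Nop14* and *Utp6* fell on stiff, with -0.26 (adjusted p = 0.0383) and -0.28 (adjusted p = 0.017). *Utp20* was at 179.8 and 199.6 CPM at 0 h, 198 and 189 at 2 h, then 183 and 153 at 12 h on soft. On stiff, *Utp20* was at 212 and 225, then 215, then 216 and 174 CPM. *Utp18* was at 55.9 and 58.8 CPM at 0 h, 57.2 and 45.9 at 2 h, then 48.8 and 53.2 at 12 h on soft. On stiff, *Utp18* was at 51.3 and 52.5, then 50.03, then 48.9 and 47.9 CPM. Neither of these was called. On soft, the call for *Nol6* was lost without 0 h replicate 2 (-0.29) or 12 h replicate 2 (-0.28), that for *Rrp12* without 0 h replicate 1 (-0.26) and that for *Utp15* without any 1 of the 4 libraries compared (-0.33 to -0.24). On stiff, the call for *Nop14* was lost without 0 h replicate 2 (-0.19), 12 h replicate 1 (-0.28) or 12 h replicate 2 (-0.24) and that for *Utp6* without 0 h replicate 1 (-0.28), 0 h replicate 2 (-0.27) or 12 h replicate 2 (-0.21).

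*Ncl* was at 3379 and 3452 CPM at 0 h, 3430.2 and 3067 at 2 h, then 2857 and 2929.6 at 12 h on soft. On stiff, *Ncl* was at 3314 and 3659.8, then 3417, then 3027 and 2783 CPM. For *Ncl* the log2 change at 12 h was -0.24 (adjusted p = 0.071) on soft and -0.26 (adjusted p = 0.049) on stiff. *Npm1* was at 2568 and 2529.7 CPM at 0 h, 2281 and 2283 at 2 h, then 2205 and 2000.0 at 12 h on soft. On stiff, *Npm1* was at 2472 and 2655, then 2541, then 2269 and 2103 CPM. For *Npm1* the log2 change at 12 h was -0.28 (adjusted p = 0.0288) on soft and -0.23 (adjusted p = 0.0709) on stiff. The 12 h libraries of both genes lay below those of 0 h on each substrate. *Gar1* was at 54.3 and 53.9 CPM at 0 h, 51.3 and 43.8 at 2 h, then 43.2 and 48.2 at 12 h on soft. On stiff, *Gar1* was at 59.6 and 50.1, then 43.9, then 43.9 and 42.5 CPM. *Gar1* fell on stiff, with -0.34 ± 0.10 (SE, adjusted p = 0.0299), and gave -0.25 (adjusted p = 0.114) on soft. *Dkc1* was at 405 and 415 CPM at 0 h, 372 and 389 at 2 h, then 374 and 355 at 12 h on soft. On stiff, *Dkc1* was at 411 and 400.4, then 379.6, then 365 and 341 CPM. For *Dkc1* the log2 change at 12 h was -0.17 (adjusted p = 0.14) and -0.20 (adjusted p = 0.0772). *Nop10* was at 62.1 and 55.6 CPM at 0 h, 64.3 and 52.9 at 2 h, then 74.4 and 67.5 at 12 h on soft. On stiff, *Nop10* was at 60.3 and 66.6, then 71.3, then 67.6 and 73.3 CPM. Its positive change of 0.27 (adjusted p = 0.0738) on soft was not called. The call for *Ncl* on stiff was lost without 0 h replicate 2 (-0.18), 12 h replicate 1 (-0.33) or 12 h replicate 2 (-0.20), and that for *Gar1* without 0 h replicate 1 (-0.21), 12 h replicate 1 (-0.37) or 12 h replicate 2 (-0.32). The call for *Npm1* on soft was lost without 0 h replicate 1 (-0.24), 0 h replicate 2 (-0.29) or 12 h replicate 2 (-0.21).

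No box C/D or polymerase I gene was called after CHIRON removal. *Fbl* was at 176 and 165 CPM at 0 h, 166 and 155 at 2 h, then 146 and 165 at 12 h on soft. On stiff, *Fbl* was at 169 and 160.3, then 149, then 148 and 148 CPM. *Nop56* was at 424 and 391 CPM at 0 h, 363 and 382 at 2 h, then 344 and 359 at 12 h on soft. On stiff, *Nop56* was at 428 and 403, then 369.5, then 373 and 357 CPM. *Nop58* was at 379.7 and 394 CPM at 0 h, 369 and 397 at 2 h, then 377 and 329 at 12 h on soft. On stiff, *Nop58* was at 404 and 409, then 409.8, then 389 and 352 CPM. Their 12 h changes were all below 0. *Polr1a* was at 206 and 238 CPM at 0 h, 211 and 219 at 2 h, then 199 and 182 at 12 h on soft. On stiff, *Polr1a* was at 239 and 255, then 237, then 219 and 195 CPM. For *Polr1a* the log2 change at 12 h was -0.22 (adjusted p = 0.0959) and -0.25 (adjusted p = 0.0546). *Polr1b* was at 85.5 and 91.6 CPM at 0 h, 81.1 and 85.2 at 2 h, then 91.6 and 93.8 at 12 h on soft. On stiff, *Polr1b* was at 95.3 and 86.2, then 82.7, then 103 and 94.4 CPM. The 12 h changes of *Polr1b* were positive and not called.

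The only gene called higher at 12 h after CHIRON removal, on either substrate, was *Nol4l* (chromosome 2, 153407462 to 153529971), one of the 3 genes with no known role in ribosome assembly. It was at 56.1 and 60.1 CPM at 0 h, 65.4 and 60.8 at 2 h, then 110.4 and 108 at 12 h on soft. On stiff, *Nol4l* was at 58.9 and 62.5, then 64.7, then 101 and 118 CPM. The 12 h libraries were far above all others, with 0.91 ± 0.09 (SE, adjusted p = 8.69e-07) and 0.85 ± 0.09 (SE, adjusted p = 1.96e-06). *Nol3* was at 4.13 and 3.86 CPM at 0 h, 4.26 and 4.4 at 2 h, then 5.73 and 5.57 at 12 h on soft. On stiff, *Nol3* was at 5.37 and 6.09, then 4.86, then 5.08 and 4.9 CPM. *Nol4* did not exceed 0.564 CPM in any library. At 2 h after CHIRON removal edgeR called 0 of 50 genes on either substrate, where 0.226% and 0.103% of all tested genes were called. At an unadjusted p under 0.05 there were 2 on soft and 5 on stiff, and DESeq2 also called 0. At this time 43 and 41 of 50 genes (86.0% and 82.0%) had a change below 0, against 50.1% and 49.7% of all tested genes. The medians were -0.09 and -0.06. The stiff group at 2 h is 1 library, genes of the same libraries are not replicates, and these shares carry no test. Among 87 cytosolic ribosomal protein genes, 90.8% on soft and 31.0% on stiff were below 0 in the same comparisons.

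**Figure D3:**
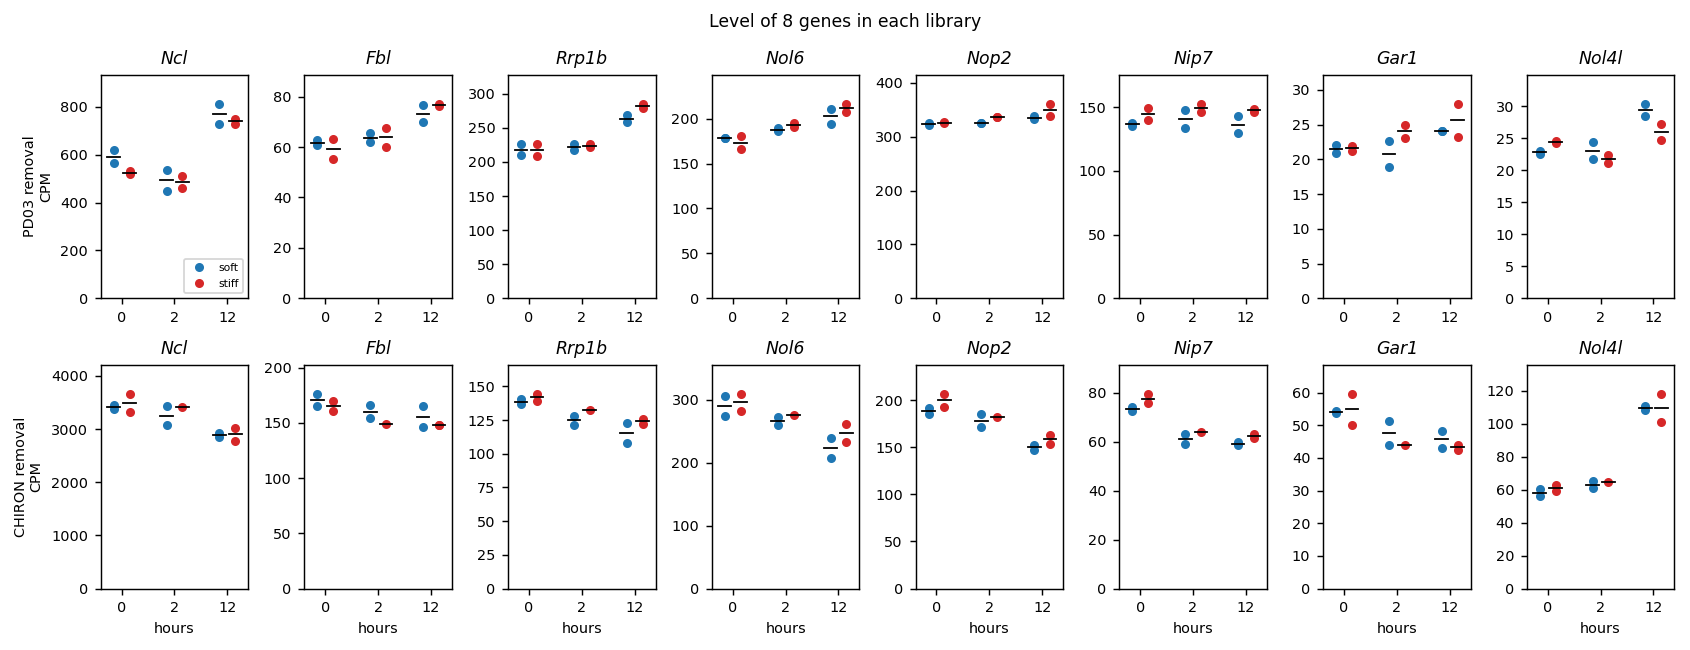
Level (CPM, each axis from 0 and scaled to its own panel) of 8 genes in each library against hours after removal of PD03 (top) or CHIRON (bottom), with soft in blue, stiff in red and the group mean as a bar. The group means of *Ncl*, *Fbl*, *Rrp1b* and *Nol6* are highest at 12 h in the top row, and in the bottom row those of *Nop2* and *Nip7* are lowest and those of *Nol4l* highest at 12 h.

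Between 2 h and 12 h, 8 genes rose and 3 fell on soft and 10 rose and 3 fell on stiff after PD03 removal, where 31.4% and 37.5% of all tested genes were called. *Fbl*, *Ncl*, *Nol4l*, *Nol9*, *Polr1b*, *Rrp1b* and *Utp14b* rose on both, and *Rrs1* and *Utp18* fell on both. Of the 29 calls between 2 h and 12 h in both experiments, 18 were lost without some 1 library, among them none of *Ncl*, *Nol9*, *Rrp1b* or *Rrs1*. After CHIRON removal the same comparison gave 1 higher and 2 lower on soft (16.9% of all called) and 1 higher and 1 lower on stiff (10.4%). The count of 13 after PD03 removal on stiff went to 8 without stiff, 12 h, replicate 2 and to 7 without stiff, 2 h, replicate 1. The 2 on stiff after CHIRON removal went to 1 without stiff, 12 h, replicate 2.

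The responses in both experiments were then compared directly, in 1 fit over all 23 libraries, as the change after PD03 removal minus the change after CHIRON removal, averaged over substrates. The spread between libraries, as edgeR's coefficient of variation, was 0.039 for PD03 removal, 0.080 for CHIRON removal and 0.060 in the fit of both. That fit takes a spread common to both experiments, and counts of calls in the separate fits rest on unequal spread. At 12 h, 22 of 49 genes had the higher response after PD03 removal and 1 had the lower, where 36.1% of all tested genes were called. The share called was 46.9%, and 18.6% of all tested genes had the higher and 17.5% the lower response. The libraries of each experiment come from a count table of their own, and table and inhibitor cannot be told apart. Levels at 0 h also differed between the experiments. *Ncl* was at 54.7 CPM per kb before PD03 removal and at 339 CPM per kb before CHIRON removal.

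The largest differences were those of *Ncl*, with 0.69 ± 0.08 (SE, adjusted p = 9.26e-08), *Nol6*, with 0.55 (adjusted p = 1.76e-06), *Rrp1b*, with 0.55 (adjusted p = 1.23e-07), and *Nol9*, with 0.53 (adjusted p = 7.67e-06). *Gar1* differed by 0.50 (adjusted p = 0.000445), *Fbl* by 0.45 (adjusted p = 3.52e-05), *Bop1* by 0.41 (adjusted p = 8.33e-06) and *Nop2* by 0.41 (adjusted p = 3.88e-06). *Nip7*, *Nop14*, *Nop56*, *Polr1a*, *Rrp1*, *Rrp7a*, *Rrp12*, *Nol10*, *Nol12*, *Nop9*, *Utp14a*, *Utp14b*, *Utp15* and *Wdr12* were also called, with differences between 0.20 and 0.40. *Nol4l* went the other way, with -0.66 (adjusted p = 7.6e-07). Of the 11 genes that rose on either substrate after PD03 removal, 7 (63.6%) were among the 15 that fell on either substrate after CHIRON removal (46.7% of those): *Bop1*, *Ncl*, *Nol6*, *Nol9*, *Nop14*, *Rrp12* and *Rrp1b*. Of all 13171 genes tested in both, 2809 rose in the first and 1609 fell in the second, and the 441 that did both were 15.7% and 27.4% of those. A gene called on either substrate was counted, and these counts carry no test. At 2 h, 3 of 49 differed, where 3.5% of all tested genes were called: *Nip7*, with 0.32 (adjusted p = 0.0103), *Rrs1*, with 0.31 (adjusted p = 0.00656), and *Utp14b*, with -0.27 (adjusted p = 0.0414). The calls for *Nol10*, *Nol12*, *Nop9* and *Utp14b* at 12 h were each lost without some single libraries of either experiment, where the difference lay between 0.16 and 0.30, and that for *Utp14b* at 2 h likewise, between -0.29 and -0.21. The count at 2 h was 6 without CHIRON removal, stiff, 0 h, replicate 2 and 5 without CHIRON removal, soft, 2 h, replicate 1. With the library of low depth added, the counts at 12 h and 2 h were 2 and 0.

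**Figure D4:**
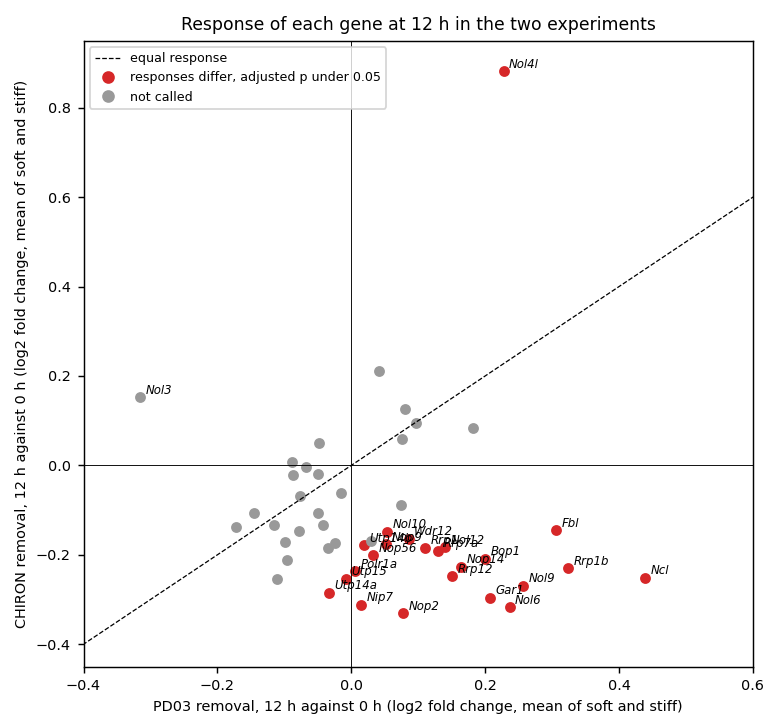
Log2 fold change at 12 h against 0 h after PD03 removal (x) and after CHIRON removal (y), each the mean of soft and stiff, for the 49 genes tested in both; red points are the 23 whose responses differ at an adjusted p under 0.05, and the dashed line marks equal responses. All red points but *Nol4l* lie below the line, most with a negative value on the y axis.

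Substrate stiffness was the other variable. Soft against stiff, edgeR called 0 genes of the group at 0 h, 2 h and 12 h in both experiments, and DESeq2 also called 0. Of all tested genes, 0.0298%, 0.134% and 0.767% were called in the PD03 removal libraries and 0% in the CHIRON removal libraries. At an unadjusted p under 0.05 there were 5, 1 and 3 of 49 in the PD03 removal libraries and 1, 4 and 2 of 50 in the CHIRON removal libraries. The medians of soft minus stiff were -0.03, -0.03 and -0.05 in the first and -0.03, -0.05 and -0.04 in the second. In the first, 37, 32 and 39 of 49 genes were below 0, and in the second 35 of 50 at each time. Among all genes 49.7% to 50.7% were. The tilt was not particular to this group. Of 85 other pathway genes, described below, 65.9%, 74.1% and 77.6% were below 0 in the first. In the second the shares were 64.7%, 65.9% and 70.6%. The change from 0 h also did not differ between substrates for any gene by the test, at 2 h or 12 h, where at most 0.00745% of all tested genes were called at 2 h, with 1 and 2 genes at an unadjusted p under 0.05 after PD03 removal and 2 and 1 after CHIRON removal. These counts do not show that the substrates act alike.

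Other genes of the pathway, 90 polymerase I, small subunit and large subunit factors outside the name rule of which 85 were tested, were counted in the same way. At 12 h against 0 h after PD03 removal, 20 rose and 7 fell on soft (31.8% called, against 29.4% of all tested genes) and 21 rose and 9 fell on stiff (35.3%, against 38.4%). After CHIRON removal, 1 rose and 24 fell on soft (29.4%, against 17.8%) and 1 rose and 22 fell on stiff (27.1%, against 16.8%). Their responses differed at 12 h for 47 of 85 (55.3%, against 36.1%), of which 43 were higher after PD03 removal. Of 87 genes of cytosolic ribosomal proteins, 54 fell on soft (62.1% called) and 51 fell and 1 rose on stiff (59.8%) after PD03 removal, and 1 and 0 fell after CHIRON removal. In the fit of both experiments 4 of 88 had the higher and 35 the lower response after PD03 removal (44.3%). No test compared these lists with each other or with the genes described here.

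*Myc* is no member of the group. After PD03 removal it was at 5.06 and 4.37 CPM at 0 h, 14.7 and 12.9 at 2 h, then 14.2 and 10.9 at 12 h on soft. On stiff, *Myc* was at 5.85 and 5.98, then 17.9 and 20.6, then 19.7 and 18.1 CPM. After CHIRON removal it was at 45.9 and 40.8 CPM at 0 h, 36 and 29.1 at 2 h, then 8.73 and 8.83 at 12 h on soft. On stiff, *Myc* was at 38.5 and 45.4, then 32.1, then 13.7 and 15.4 CPM. Every 12 h library was above every 0 h library in the first experiment and below in the second. *Mycn*, a relative of *Myc*, was after PD03 removal at 118 and 122 CPM at 0 h, 115 and 111 at 2 h, then 118 and 120.1 at 12 h on soft. On stiff, *Mycn* was at 120.1 and 124, then 115 and 113, then 120.1 and 114 CPM. After CHIRON removal *Mycn* was at 54.7 and 61 CPM at 0 h, 72.9 and 69.6 at 2 h, then 98.3 and 101 at 12 h on soft. On stiff, *Mycn* was at 67.4 and 58.2, then 64.9, then 104 and 108 CPM, with all 12 h libraries above those of 0 h. *Rrn3*, a polymerase I initiation factor, was after CHIRON removal at 284 and 282 CPM at 0 h, 249 and 257 at 2 h, then 192 and 193 at 12 h on soft. On stiff, *Rrn3* was at 306 and 299, then 254, then 212 and 193 CPM. The values of *Rrn3* after PD03 removal, and those of *Max* and *Ubtf*, which were also set as outside genes, are not given here. The part of all these genes in the changes above was not tested.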

How the data were processed

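Total RNA of 24 libraries in 12 groups was sequenced. The authors deposited whole-number counts of reads per gene, made with TopHat2 2.1.0 and featureCounts 1.5.0 on mm10 per the submitters' processing notes, and 12 columns of the first table belong to other samples and were not used. The genes and lists were chosen with earlier results of these data known. Symbols of the PD03 removal table were stripped of trailing spaces and matched to gene IDs through the other table and GENCODE M21. In it, 23 rows without a name were left out. The 15 names turned into dates were kept but matched no gene, so they entered only the alternative with all genes. Protein-coding genes that passed edgeR's filterByExpr (minimum count 10, minimum total 15) were TMM-scaled and tested with edgeR's quasi-likelihood test over all 6 groups of an experiment, with Benjamini-Hochberg adjustment over all genes tested and a threshold of 0.05: 13423, 14615 and, in the fit of both experiments, 14742 genes. The library of low depth was left out. Levels are TMM-scaled CPM. Values by library are given for 16 genes chosen by role and for the 3 tested genes with the largest and the 3 with the smallest mean 12 h change in each experiment. Both tests were tested on simulated data. Alternatives were DESeq2 and its size factors, no TMM, no filter, all genes, only the groups compared, a replicate block, the library of low depth, and each library left out. Replicate numbers were not used to pair libraries in the main fits. Log2 changes are edgeR's, and the precision is limited by counting and by 2 libraries per group.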

Additional observations from a re-analysis of the deposited data

Results flagged for a closer look

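The change at 12 h differed between PD03 removal and CHIRON removal for 23 of the 49 ribosome biogenesis genes, and the change at 2 h for 3. Each was flagged because the difference itself passed the test in the fit over both experiments. The groups hold 2 libraries, too few to look for a library that stands apart.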

How the results depend on the processing

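Of 305 alternative counts of called genes, 275 stayed within 1.5 times the reported count, or at 0 where that count was 0. No direction reversed. The reported count was 0 for soft against stiff, for the response between substrates and for 2 h after CHIRON removal. These comparisons passed by staying at 0, so the 275 says little about the counts above 0. The cause of the other 30 was not tested, except where fewer libraries or more genes tested entered by construction. With the library of low depth, CHIRON removal at 12 h against 0 h gave 1 gene on soft and 1 on stiff, 12 h against 2 h gave 1 on soft and 0 on stiff, and the differences between experiments gave 2 at 12 h and 0 at 2 h. With all genes of the table, CHIRON removal at 12 h gave 6 on soft and 3 on stiff, and 1 on stiff against 2 h. Without TMM, CHIRON removal on stiff at 12 h gave 4, and with only the groups compared 5. DESeq2 gave 0 for PD03 removal on soft at 2 h, and no filter gave 1 for soft against stiff at 0 h in that experiment. Leaving out 1 library at a time gave 0 to 1 genes for PD03 removal at 2 h on each substrate, 7 to 12 on stiff at 12 h against 0 h and 7 to 11 against 2 h, 2 to 8 and 1 to 6 for CHIRON removal at 12 h on soft and stiff, 1 to 2 on stiff against 2 h, and 2 to 6 for the difference between experiments at 2 h and 19 to 27 at 12 h. Correlations of same-numbered libraries averaged -0.0028 and -0.020, so numbers were not used to pair libraries in the main fits. These correlations cannot show that same-numbered libraries were grown or processed apart. With the replicate block the count for CHIRON removal on stiff, 12 h against 2 h, was 1. With that block 23 of 24 counts stayed within 1.5 times, those that stayed at 0 included. Of the 42 calls at 12 h against 0 h, 29 were lost without some 1 library and 16 under some other setting, and of the 23 differences between experiments at 12 h, 4 and 3 were. Under all alternatives but the library of low depth, the calls for *Ncl*, *Nol9* and *Rrp1b* after PD03 removal on both substrates and for *Nol4l* after CHIRON removal on both held; no fall after CHIRON removal held under every one.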
